A study of Rattus norvegicus with 10 samples.

Results

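The lymphocyte marker genes Cd3e, Cd3d, Cd3g, Cd2, Cd8a, Lck, Ptprc, Cd79b and Ccl5 were examined in white adipose tissue of 10 male rats. Members were all probe sets whose platform annotation gives 1 gene symbol that is among these 9 names, which gave 13 of the 31042 probe sets tested. The noodle group of 5 rats (animals 1, 4, 7, 10 and 13) ate a diet with 30% instant noodle by weight and 26% of its energy from fat. Per the series' design text, the control group of 5 rats (animals 2, 5, 8, 11 and 14) had that diet with the seasonings left out. All rats were 13 weeks old, received daily rations near 60 g per kg body weight, matched by pairs, for 30 days (4 weeks in another label) under a light cycle of 12 hours, and gave 1 array each. The labels name no strain, no fat depot and no genetic change, and do not say which animals formed a pair.

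T lymphocytes carry an antigen receptor whose signal is passed on by the CD3 chains and the kinase LCK, while B lymphocytes use CD79 chains for the same purpose. Fat tissue holds few lymphocytes, mostly T cells and natural killer (NK) cells scattered between adipocytes, and some depots enclose lymph nodes or lymphoid clusters rich in B cells. In bulk tissue, fewer cells of a type and less RNA per cell cannot be told apart.

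The deposited values are on a scale read here as log2, and most of them hardly vary between animals. A probe set is called flat where its SD over the 10 arrays was 0.01 or less. This held for 11 of the 13 lymphocyte probe sets, and 2607 of all 31042 probe sets (8.40%) were not flat. The 2 non-flat members were the probe set of Ccl5, with an SD of 0.42 log2 units, and 1 of 2 probe sets of Ptprc, with an SD of 0.0635. The largest SD among the flat members was 0.000249 (Cd3e) and the smallest SD among the non-flat ones was that of Ptprc, so no member lay near the limit. Array medians lay between 6.17 and 6.18. The extraction text in the labels mentions brain. The 18 measured adipocyte markers had levels from 8.81 to 13.6 (Car3), and the 18 measured brain markers had levels from 5.34 to 8.76 (Mbp). Levels of different probe sets are not ranked against each other here.

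Ccl5 encodes a chemokine that activated T cells and NK cells secrete to attract other leukocytes. Its value differed widely between animals of the same diet. In the noodle group it stood at 6.41 in animal 1, 6.57 in animal 4, 6.95 in animal 10, 7.37 in animal 13 and 7.38 in animal 7. In the control group it stood at 6.57 in animal 5, 6.71 in animal 11, 6.77 in animal 14, 7.45 in animal 2 and 7.52 in animal 8. Each diet thus held 2 animals above 7.3 and 3 below 7, and the groups overlapped over nearly their whole range. The highest and the lowest animal lay 1.10 log2 units apart, or 2.15-fold on the deposited scale. Only 174 of the 2607 non-flat probe sets, Ccl5 included, had an SD as large. Between the diets the difference was small beside this spread. Ccl5 averaged 6.94 ± 0.44 (SD, n = 5) with the noodle diet and 7.003 ± 0.44 (SD, n = 5) with the control diet. The difference was -0.07 ± 0.27 log2 units (SE), with a 95% interval from -0.69 to 0.55 (limma, adjusted p = 0.999). With a measure of RNA quality (the gap between 3-prime and 5-prime control probe sets) as a covariate it was -0.26 ± 0.36 (SE). Dropping a single rat turned its sign in 4 cases: to 0.06 for noodle rat 1, 0.02 for noodle rat 4, 0.04 for control rat 2 and 0.06 for control rat 8.

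Ptprc encodes CD45, the membrane phosphatase of all leukocytes, which keeps LCK ready for activation. Its non-flat probe set stood at 7.78 in noodle animals 1 and 10, 7.87 in animal 13, 7.90 in animal 4 and 7.91 in animal 7. In the control group it stood at 7.71 in animal 5, 7.81 in animals 11 and 14, 7.84 in animal 8 and 7.89 in animal 2. The 2 highest animals were noodle rats and the lowest was a control rat, but the groups overlapped. The means were 7.85 ± 0.06 and 7.81 ± 0.06 (SD, n = 5 each), and the difference was 0.04 ± 0.04 (SE), with a 95% interval from -0.05 to 0.13 (limma, adjusted p = 0.993). The same measure of RNA quality averaged 0.84 ± 0.07 with noodle and 0.95 ± 0.08 with control diet (SD, n = 5 each). With it as a covariate, the Ptprc difference was -0.00197. The measure correlated with Ptprc at -0.539 (rho = -0.406, permutation p = 0.108 and 0.249), and its part in the Ptprc value was not tested further. Without control animal 5 the Ptprc difference was 0.015. Of the macrophage marker list, 16 of 19 genes had a higher mean with the noodle diet, where 51.5% of all genes did, and 0 of the 19 had an unadjusted p under 0.05 in limma. The list had a mean level between 8.08 and 8.49 in noodle rats and between 8.03 and 8.44 in controls, and its part in the Ptprc value was not tested. The other Ptprc probe set was flat at 6.73, with a difference of 0.912 ± 1.29 (SE) in units of 0.0001 log2.

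**Figure D1:**
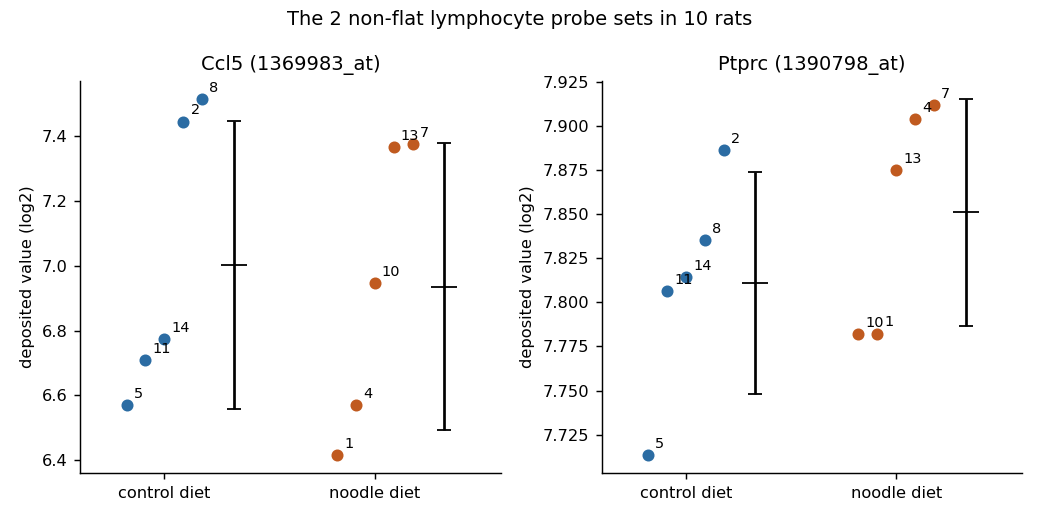
Deposited log2 values of Ccl5 (left) and of the non-flat probe set of Ptprc (right) in 5 control rats and 5 noodle rats, 1 point an animal with its number, with the mean and SD of each group as a bar. In Ccl5, 2 animals of each diet lie above 7.3 and the group means are 7.003 and 6.94; in Ptprc the means are 7.81 and 7.85.

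No lymphocyte probe set passed the test between the diets. Of the 13, 0 reached an adjusted p under 0.05 in limma and 0 reached an unadjusted p under 0.05, where 0% and 4.77% of all probe sets and 8.13% of the non-flat ones (unadjusted) did. In 0 of the 13 were the groups apart without overlap, as they were in 0.718% of all probe sets and 0.959% of the non-flat ones. With the brightest probe set standing for each gene, 3 of the 9 genes were higher in the noodle group (Cd3d, Cd8a and Ptprc) and 6 lower, where 51.5% of all 14217 genes were higher. The median difference was -8.38e-05 log2 units over the 9 genes and 5.08e-06 over all genes. The count of higher genes was 6 without noodle animal 4 and 6 without control animal 2. With quantile normalization, or with each array centred on its median, 8 of the 9 genes were higher and the median difference was 0.00104 or 0.0016. The share of all genes higher under these scalings is not given here, so this count is not read as a trait of the members. The array medians themselves ranged over 77.6 units of 0.0001 log2, more than the values of any flat member did.

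Among the flat members, the chains of the CD3 complex, which carry the antigen receptor's signal into the T cell, had levels of 6.24 and 5.88 (Cd3e, 2 probe sets), 6.01 (Cd3d) and 6.03 (Cd3g). Lck, the kinase that phosphorylates these chains, had a level of 6.48. Cd2, an adhesion receptor of T and NK cells, stood at 5.91. The 3 probe sets of Cd8a, the co-receptor of cytotoxic T cells, stood at 5.57, 5.61 and 5.94. Cd79b, a signalling chain of the B cell receptor, stood at 5.80. Over the 10 animals their values spanned from 2.24 (a Cd8a probe set) to 9.04 (Cd3e) in units of 0.0001 log2, with SDs from 0.731 to 2.49. The diet differences of the flat members ran from -1.13 ± 1.08 (SE, Cd2) to 0.912 ± 1.29 (SE, the flat probe set of Ptprc) in these units, so each was about as large as its error or smaller. What size of change in RNA such a unit stands for is unknown, so only the order and the relative spacing of the animals are used below.

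Flat probe sets of 1 gene correlated more weakly with each other than non-flat ones did. Over all genes with several probe sets, the median Pearson correlation across the 10 animals was 0.869 for 373 pairs of non-flat probe sets of the same gene. It was 0.452 for 1100 pairs with 1 flat and 1 non-flat probe set, and 0.204 for 8124 pairs of flat ones. For Ptprc itself, the flat and the non-flat probe set correlated at 0.728 (Spearman's rho = 0.636, permutation p = 0.0155 and 0.0559). The relations of flat probe sets were examined after the data had been seen.

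Of the members, Lck had the highest correlation with Ccl5. Lck, in units of 0.0001 log2 from its mean, was highest in control animal 8 (2.83), noodle animal 7 (2.07), control animal 2 (1.36) and noodle animal 13 (1.13), the 4 animals with the highest Ccl5. It was lowest in noodle animals 1 (-2.44) and 4 (-2.21), and stood at -1.31 in control animal 11, -1.09 in control animal 5, -0.84 in noodle animal 10 and 0.489 in control animal 14. Across the 10 animals Lck correlated with Ccl5 at r = 0.930 (rho = 0.939, permutation p = 0.00025 and 0.00024). This was the 1 pair of the 78 pairs of lymphocyte probe sets that passed after Benjamini-Hochberg adjustment over the pairs (adjusted p = 0.0195 for r and 0.0187 for rho). The relation held within the diets (r = 0.944 for deviations from the diet means, exact permutation p = 0.000903) and without the 2 animals farthest from the Ccl5 median, control animals 8 and 2 (r = 0.902, exact permutation p = 0.00243). Leaving out each animal in turn gave r from 0.911 to 0.963. Ccl5 had its widest gap, 0.421 log2 units, between the 6 lower and the 4 higher animals, and within the 6 lower animals r was 0.688 (exact permutation p = 0.114). Of 31041 other probe sets on the array, Lck had rank 4 by its correlation with Ccl5.

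The CD3 genes came next, and none of their pairs with Ccl5 passed the adjustment over the 78 pairs. Cd3g correlated with Ccl5 at r = 0.841 (rho = 0.782, permutation p = 0.00193 and 0.0103, adjusted p = 0.0588 and 0.230). Its highest value was in noodle animal 13 (2.21 units) and its lowest were in noodle animals 4 (-3.52) and 1 (-3.08). The brighter Cd3e probe set gave r = 0.737 (rho = 0.733, permutation p = 0.0102 and 0.0206, adjusted p = 0.198 and 0.230), with control animal 2 highest (4.64 units) and noodle animal 4 lowest (-4.40). Cd3d gave r = 0.719 (rho = 0.733, permutation p = 0.0178 and 0.0204, adjusted p = 0.198 and 0.230), with noodle animal 7 highest (2.80 units) and control animal 5 lowest (-3.45). With each single animal left out, r stayed between 0.792 and 0.917 for Cd3g, between 0.686 and 0.797 for Cd3e and between 0.658 and 0.824 for Cd3d. Without control animals 8 and 2 it was 0.847, 0.713 and 0.773, and within the 6 lower animals it was 0.772, 0.729 and 0.651 (exact permutation p = 0.0806, 0.103 and 0.143). The 10 pairs among the 5 probe sets of the CD3 genes and Lck had r from 0.342 to 0.835, with a median of 0.616. All these values share the 10 arrays and their scaling. Ccl5 and Lck correlated with the array median at 0.0605 and 0.251 and with the 3-prime to 5-prime difference at -0.176 and -0.163, and given the array median Lck and Ccl5 correlated at 0.947.

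**Figure D2:**
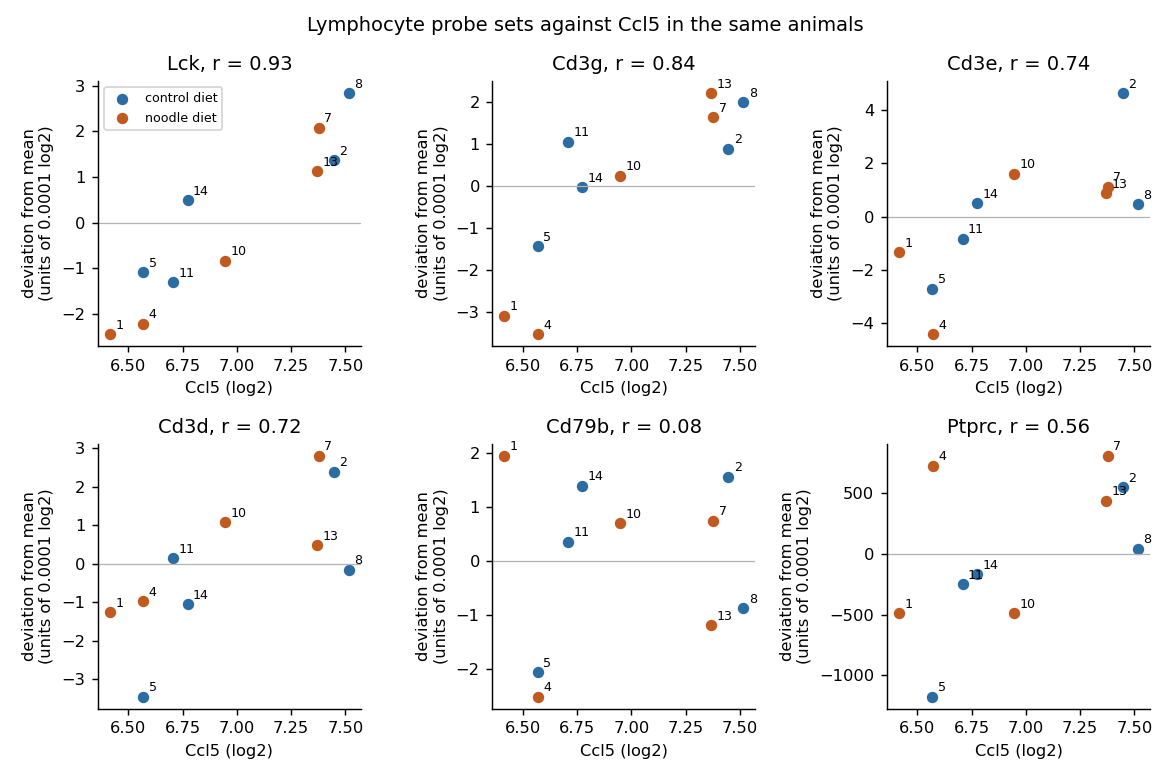
Deviation of 6 lymphocyte probe sets from their mean over 10 animals, in units of 0.0001 log2, against the Ccl5 value of the same animal in log2; each point is 1 animal with its number, coloured by diet. Lck (r = 0.93), Cd3g (0.84), Cd3e (0.74) and Cd3d (0.72) are low in noodle animals 1 and 4 and control animal 5, where Ccl5 is low, while Cd79b (0.08) shows no such order.

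These relations changed with the scaling of the arrays. Centring each array on its median brought the correlation with Ccl5 to 0.019 for Lck, 0.0197 for Cd3g, 0.0244 for Cd3e and 0.00229 for Cd3d. Quantile normalization brought it to 0.0589, 0.228, -0.00414 and 0.133. Both alternatives shift the values of an array, and the array medians had an SD of 22.8 units of 0.0001 log2, against 1.83 for Lck, 2.04 for Cd3g, 2.49 for Cd3e and 1.84 for Cd3d.

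The other members had lower correlations with Ccl5 over all 10 animals. The Cd8a probe sets correlated with it at 0.547, 0.534 and 0.235, the second Cd3e probe set at 0.614 and Cd2 at 0.172 (permutation p = 0.111, 0.113, 0.505, 0.0624 and 0.627). Single animals moved these values. With each animal left out in turn, the Cd8a probe sets ranged from 0.393 to 0.722, from 0.388 to 0.824 (highest without noodle animal 7) and from 0.035 to 0.418, and the second Cd3e probe set from 0.528 to 0.941 (highest without noodle animal 1). Cd79b gave r = 0.0779 (permutation p = 0.828). It was highest in noodle animal 1 (1.94 units), the animal with the lowest Ccl5, and lowest in noodle animal 4 (-2.52). The non-flat Ptprc probe set gave r = 0.562 (rho = 0.527, permutation p = 0.0911 and 0.125). Noodle animal 4 had the second highest Ptprc value of all 10 rats and a low Ccl5 value. With each animal left out in turn, r ranged from 0.481 (without control animal 5) to 0.807 (without noodle animal 4). Within the 6 animals with lower Ccl5, Ptprc gave r = -0.00764. Of the 78 pairs of member probe sets, 72 had an r above 0 and 13 an unadjusted permutation p under 0.05. The same shares over pairs of other probe sets were not computed, so these counts are not read as a trait of the members. All pairs share the 10 arrays, and some join probe sets of the same gene. Over the members besides Ccl5, the median r with Ccl5 was 0.554 as deposited, 0.164 with quantile normalization and -0.015 with centring.

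By animal, the members did not all stand high or low together. Control animal 5 was lowest in 3 of the 9 genes, among the 3 lowest in 8 and above the median in 0. Noodle animals 1 and 4 were among the 3 lowest in 6 genes each. Control animal 2 was above the median in 9 of 9 genes and among the 3 highest in 6, Ccl5, Ptprc and Cd79b included. Noodle animal 7 was among the 3 highest in 7 genes and control animal 8 in 5. These counts use the brightest probe set of each gene, which is flat for all but Ccl5 and Ptprc, on the deposited scaling only. How often each animal ranks high or low over all probe sets is not given here. Over all 13 probe sets noodle animal 7 was among the 3 highest in 8 and the 3 lowest in 3. For control animal 8 these were 7 and 1. Noodle animal 7 was highest in the brightest Cd8a probe set but ranked 9 of 10 in each of the other 2. The brightest one correlated with those at -0.338 and -0.293. By gene, the 3 animals most often among the 3 highest came from both diets, as did the 3 most often among the 3 lowest. Noodle animal 1 stood low in Ccl5, Lck and Cd3g and highest in Cd79b.

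**Figure D3:**
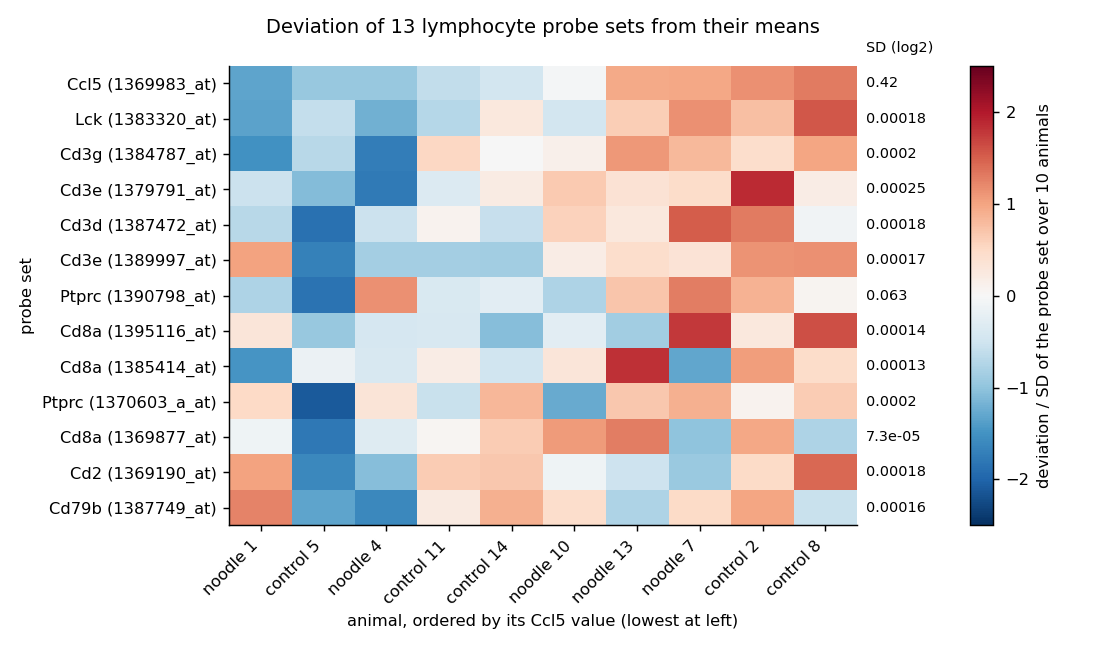
Deviation of the 13 lymphocyte probe sets (rows, ordered by their correlation with Ccl5) from their mean, divided by their SD over the 10 animals, with animals (columns) ordered by Ccl5 and the SD in log2 printed at the right. The upper rows, Ccl5, Lck and Cd3g, run broadly from low at the left to high at the right, and those of Cd3d and Cd3e less evenly. In control animal 8, at the right end, Cd3d and the brighter Cd3e probe set rank 6 of 10. The other Cd3e probe set ranks 3 of 10 in noodle animal 1, at the left end. The lower rows, with Cd2 and Cd79b, show no such order.

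The start regions of the CD3 and Lck genes are shown because their probe sets had the 4 highest correlations with Ccl5 among the members. RefSeq's promoter table for build GRCr8 gives 250 bases before and 50 after each gene start, and 7 of the 9 members have an entry in it. Ccl5 and Cd79b have none. Lck has 2 entries, both on the minus strand of chromosome 5, at chr5:147201218-147201517 and chr5:147183601-147183900. Cd3e (chr8:54211721-54212020, minus strand), Cd3d (chr8:54185269-54185568, plus strand) and Cd3g (chr8:54183869-54184168, minus strand) are neighbours in the RefSeq gene order, with Cd3d between the other two. Capitals mark CAGGAAGT on either strand, a sequence of the type bound by ETS factors, which are abundant in lymphocytes. It was chosen after these sequences had been read.
Lck, upstream start: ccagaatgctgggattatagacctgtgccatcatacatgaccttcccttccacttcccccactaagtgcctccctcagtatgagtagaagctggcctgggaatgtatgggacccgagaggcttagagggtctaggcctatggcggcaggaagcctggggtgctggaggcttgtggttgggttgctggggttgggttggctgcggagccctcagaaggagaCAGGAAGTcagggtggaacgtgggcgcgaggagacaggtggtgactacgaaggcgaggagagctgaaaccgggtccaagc
Lck, downstream start: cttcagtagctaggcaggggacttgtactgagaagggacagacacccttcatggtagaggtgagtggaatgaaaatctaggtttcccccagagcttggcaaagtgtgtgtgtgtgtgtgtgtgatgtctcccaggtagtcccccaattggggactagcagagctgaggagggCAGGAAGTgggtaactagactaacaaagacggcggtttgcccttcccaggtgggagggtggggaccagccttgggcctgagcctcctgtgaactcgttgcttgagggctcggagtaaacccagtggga
Cd3e: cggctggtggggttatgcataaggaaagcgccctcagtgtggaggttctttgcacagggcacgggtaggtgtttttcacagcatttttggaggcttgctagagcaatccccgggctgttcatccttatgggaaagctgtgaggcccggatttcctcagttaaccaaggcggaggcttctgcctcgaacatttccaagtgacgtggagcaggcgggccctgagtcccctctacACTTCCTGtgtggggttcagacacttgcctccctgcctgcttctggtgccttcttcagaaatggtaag
Cd3g: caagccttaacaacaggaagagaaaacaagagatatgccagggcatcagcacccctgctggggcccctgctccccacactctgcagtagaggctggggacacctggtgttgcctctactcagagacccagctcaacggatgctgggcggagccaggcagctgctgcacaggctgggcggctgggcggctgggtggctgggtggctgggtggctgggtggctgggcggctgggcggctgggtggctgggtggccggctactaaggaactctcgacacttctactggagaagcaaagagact
Cd3d: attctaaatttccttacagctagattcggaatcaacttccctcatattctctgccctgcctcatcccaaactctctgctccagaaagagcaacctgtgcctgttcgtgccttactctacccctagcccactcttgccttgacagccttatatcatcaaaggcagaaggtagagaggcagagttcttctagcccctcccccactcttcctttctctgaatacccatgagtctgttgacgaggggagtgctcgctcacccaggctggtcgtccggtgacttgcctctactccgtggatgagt
The letters CAGGAAGT were present in both Lck entries, in Cd3e and in Ptprc (chr13:52259697-52259996, minus strand). This made 4 of the 8 member entries, or 3 of the 7 member genes with an entry. The same letters were present in 3.05% of all 33469 entries of that length. Because they were chosen after the sequences had been read, these shares are not a test of enrichment. TGTGGT on either strand, the core bound by RUNX factors, was in 2 of the 8 entries, the upstream start of Lck and Cd2, and in 17.3% of all entries. Neither motif contains the other. A match is a description of the letters and not a measured binding site.

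Other T and NK cell genes ranged widely in their correlation with Ccl5. Of 54 symbols in this marker list outside the members, 41 genes were measured with 54 probe sets, all of them flat. Between the diets 26 of the 41 genes were higher and 15 lower in the noodle group, with a median difference of 2.07e-05 log2 units. In limma 0 passed at an adjusted p under 0.05 and 3 at an unadjusted p under 0.05. The whole-array shares were 51.5% of genes higher and 4.77% of probe sets at such an unadjusted p. Of the 54 probe sets, 42 correlated with Ccl5 above 0 and 7 at 0.7 or more, where 47.9% and 1.11% of all probe sets did. Their median r was 0.286 and 12 of them were below 0. With each array centred on its median, 0 of the 54 reached 0.7 and the median r was -0.0344, and with quantile normalization these were 0 and 0.189. Centring shifts arrays by more than most flat probe sets vary, so it cannot decide whether such a relation is present. With it the median r was -0.0637 for the lymph node list and -0.0662 for the brain list. The counts at 0.7 or more hold for the deposited scaling only. Among the members besides Ccl5, 12 of 12 probe sets correlated above 0 and 4 of 12 at 0.7 or more. The genes with the highest values, named after they were seen, were Cxcr3 (r = 0.876, rho = 0.867), the receptor that guides effector T cells into inflamed tissue, Klrd1 (0.875 and 0.867), which encodes the NK receptor CD94, and Gzmm (0.874 and 0.842), a granzyme of cytotoxic cells. They were followed by Ptpn22 (0.822 and 0.806), a phosphatase that acts against LCK, the T cell transcription factor Bcl11b (0.760 and 0.733), Gzmk (0.758 and 0.818) and the CD3-zeta gene Cd247 (0.732 and 0.648). Other probe sets of these genes were lower, at 0.472 for Ptpn22, 0.181 and -0.0745 for Bcl11b and 0.446 for Cd247. Their ranks among the 31041 probe sets were 12 for Cxcr3, 13 for Klrd1, 15 for Gzmm, 43 for Ptpn22, 151 for Bcl11b, 157 for Gzmk and 225 for Cd247. At the other end, the NK receptor genes Ncr1 and Klrk1 gave -0.555 and -0.483, Cd7 gave -0.417 and Cd4, the co-receptor of helper T cells, gave -0.255. The cytotoxic granule genes Gzma, Gzmb and Prf1 gave -0.168, 0.079 and 0.0649 (brightest probe sets). The list of T cell receptor signalling partners, which shares Ptpn22, Cd247 and Cd4 among others with it, had 2 of 27 probe sets at 0.7 or more and a median r of 0.0103. By the brightest probe sets its 1 non-flat gene was the phosphatase Ptpn6, which differed by 0.01 ± 0.02 (SE) between the diets. A less bright probe set of Fyn was also non-flat and differed by -0.05 ± 0.05 (SE).

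B cell genes had a median correlation with Ccl5 near 0. Of the B and plasma cell list, 19 of 30 symbols were measured with 31 probe sets, of which 12 correlated with Ccl5 above 0 and 0 at 0.7 or more, with a median r of -0.0662. This was 0.125 with quantile normalization and -0.0602 with centring. The highest was 1 of 5 probe sets of Cr2, the complement receptor of B cells and follicular dendritic cells, at 0.556, while another gave -0.455. Cr2 is also on the lymph node list. Of the 19 genes, by their brightest probe sets, 11 were higher and 8 lower in the noodle group, 0 at an unadjusted p under 0.05 in limma. A less bright flat probe set of Cr2 had an unadjusted limma p of 0.0422 (adjusted p = 0.993). Over the whole array 51.5% of genes were higher and 4.77% of probe sets had such a p. By the brightest probe sets, 2 genes were non-flat. They were Fcmr, an IgM receptor, with a difference of 0.21 ± 0.14 (SE), and Cxcr5, the receptor that leads B cells into follicles, with 0.06 ± 0.18. A less bright probe set of Ebf1 was also non-flat and differed by -0.16 ± 0.10 (SE). Cxcr5 was highest in noodle animal 1 at 7.83, against 6.91 to 7.40 in the other animals. Its other probe set was flat.

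Genes of lymph node structure also varied between animals. Of 16 measured genes, by their brightest probe sets, 9 were higher and 7 lower in the noodle group, 0 at an unadjusted p under 0.05 in limma. Less bright flat probe sets of Prox1 and Cr2 had an unadjusted limma p of 0.0278 and 0.0422 (adjusted p = 0.993 for both). The shares over the whole array were 51.5% of genes higher and 4.77% of probe sets with such a p. Their 27 probe sets had a median r with Ccl5 of -0.123, with 0 at 0.7 or more, and the highest was the lymphotoxin gene Ltb at 0.580. Cxcl13, the chemokine of B cell follicles, stood at 8.09 in control animal 14, 7.39 in noodle animal 7 and 6.24 to 7.13 in the other 8 animals. Its diet difference was -0.16 ± 0.37 (SE). Ccl21, the chemokine that draws T cells into lymph nodes and was named after its values were seen, stood at 7.59 in noodle animal 4, 7.38 in control animal 8, 7.36 in control animal 2 and 6.37 to 7.04 in the others. Noodle animal 4 had the highest Ccl21 together with the lowest Cd3g and the lowest value of the brighter Cd3e probe set. Control animals 8 and 2, next in Ccl21, had the 2 highest Ccl5 values. Control animal 8 was also highest in Lck, and control animal 2 in the brighter Cd3e probe set. Over all 10 animals Ccl21 correlated with Ccl5 at 0.138. Cxcl12, a chemokine of stromal cells, differed by 0.09 ± 0.11 (SE), the sulfotransferase Chst4 by -0.18 ± 0.18, Pdpn, a surface protein of stromal and lymphatic cells, by 0.05 ± 0.23 and the lymphatic vessel gene Lyve1 by 0.04 ± 0.19. The difference of each was smaller than the SDs within the diets. Cxcl12 and Lyve1 each have several non-flat probe sets, of which the brightest is given. The others differed by -0.04 and 0.05 for Cxcl12 and by -0.12 for Lyve1.

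**Figure D4:**
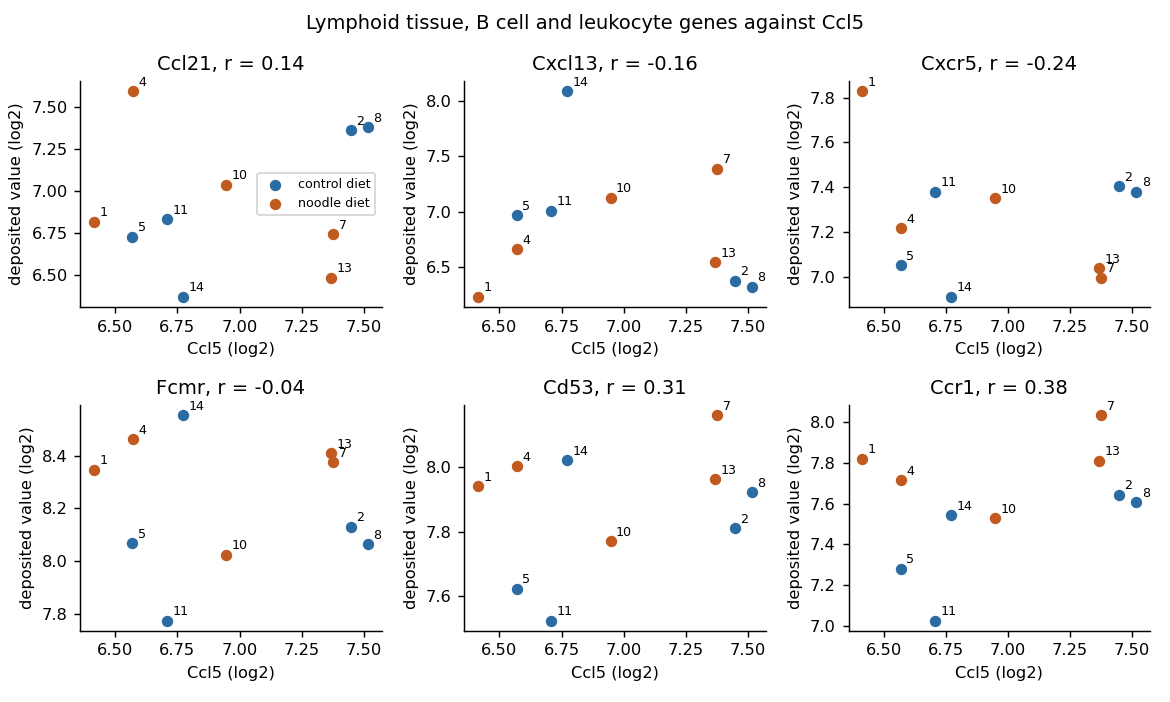
Deposited log2 values of Ccl21, Cxcl13, Cxcr5, Fcmr, Cd53 and Ccr1 against Ccl5 (log2) in the same animals, 1 point an animal with its number, coloured by diet. Correlations run from -0.24 for Cxcr5 to 0.38 for Ccr1, and Ccl21 is highest in noodle animal 4, Cxcl13 in control animal 14 and Cxcr5 in noodle animal 1.

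Genes shared by all leukocytes were set beside Ptprc and Ccl5, with no test of the difference between the correlations. Of 18 probe sets in this list, 5 correlated with the non-flat Ptprc probe set at 0.7 or more (the non-flat one of Lcp1 and flat ones of Spn, Itgal, Cd48 and Cd44) and 0 with Ccl5, where 2.34% and 1.11% of all probe sets did. The median r was 0.478 with Ptprc and 0.140 with Ccl5. Correlations with Ptprc, those of flat probe sets included, are given on the deposited scaling only. Lcp1, an actin-bundling protein of leukocytes, correlated with Ptprc at 0.760, Cd53 at 0.640, Laptm5 at 0.555 and Coro1a at 0.458, while Cd52 gave -0.332. Between the diets Cd53 differed by 0.19 ± 0.11 (SE), Lcp1 by 0.14 ± 0.10, Laptm5 by 0.09 ± 0.10, Coro1a by -0.03 ± 0.09 and Cd52 by -0.19 ± 0.12. None of the 16 measured genes passed in limma over all probe sets, and 1 had an unadjusted p under 0.05, where 4.77% of all probe sets did. The macrophage list had a median r of 0.425 with Ptprc and of -0.0387 with Ccl5, with 0 of 22 probe sets at 0.7 or more for Ccl5. Of the receptors of CCL5, Ccr1, which monocytes also carry, differed by 0.36 ± 0.14 (SE, limma, unadjusted p = 0.0295, adjusted p = 0.993) and correlated with Ccl5 at 0.378 and with Ptprc at 0.614. It stood between 7.53 and 8.04 in noodle rats and between 7.03 and 7.64 in controls.

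**Figure D5:**
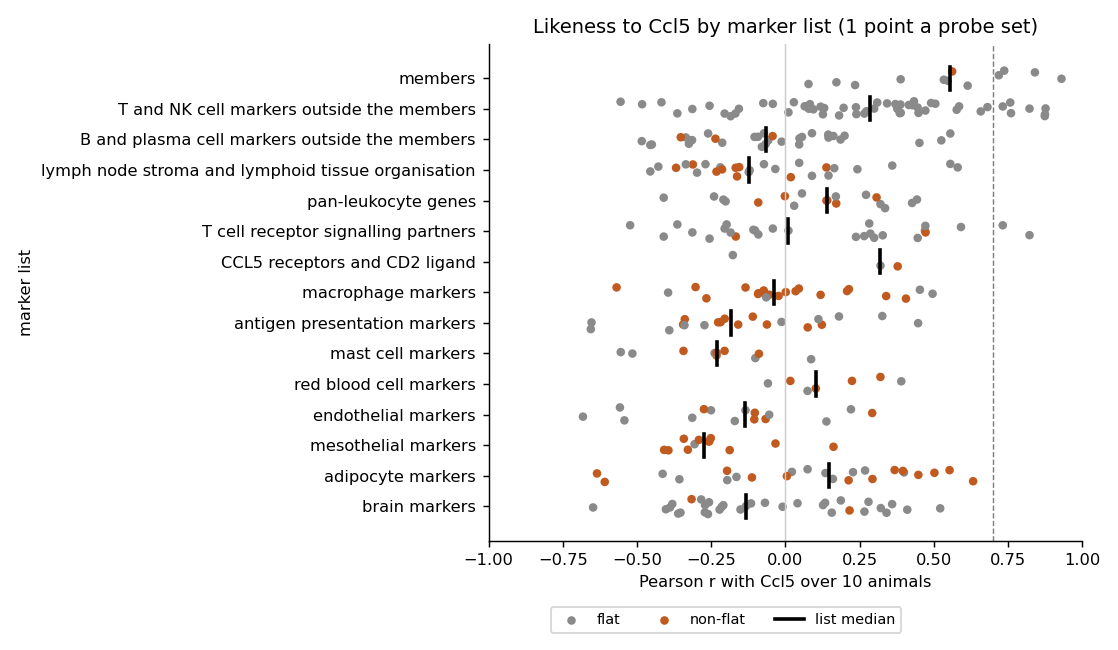
Pearson correlation with Ccl5 over 10 animals for each probe set (1 point, flat in grey and non-flat in orange) of the lymphocyte members and of 14 marker lists, with the median of each list as a black bar and a dashed line at 0.7. The members have a median of 0.554 and the T and NK cell list of 0.286, and points beyond 0.7 lie in these 2 lists and in that of T cell receptor signalling partners.

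The non-flat genes whose values over the 10 animals were most like those of Ccl5 and Ptprc, by the mean of both Pearson correlations, are on none of the marker lists. The highest was Hspa1a, a heat shock chaperone, at a mean of 0.817, followed by the histone mRNA binding gene Slbp at 0.731, the translation initiation gene Eif1a at 0.723, Trim59 at 0.721, Msl1 at 0.693, the tubulin gene Tubb2a at 0.681, Arhgap6 at 0.666 and the small heat shock gene Hspb7 at 0.663. Their diet differences ran from -0.03 ± 0.11 (SE, Trim59) to 0.29 ± 0.14 (Tubb2a). Tubb2a, Arhgap6 and Hspb7 correlated with Ptprc at 0.866, 0.867 and 0.768 and with Ccl5 at 0.497, 0.466 and 0.559. Only Eif1a and Trim59 correlated more with Ccl5 (0.792 and 0.761) than with Ptprc (0.653 and 0.682). The genes were taken as the highest among the non-flat ones outside the members, and what such a choice gives by chance was not tested.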

How the data were processed

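White adipose tissue RNA of 10 rats was hybridised to 1 expression array each. Per the labels' protocols, biotin-labelled cRNA was made from 100 ng of total RNA. Each probe set has 1 deposited value per array, taken as log2 from its range. No source used here gives the background correction, summarisation or normalization. Of 31099 probe sets, 57 array controls were left out. Symbols come from the platform annotation, and all 9 member symbols matched gene identifiers in RefSeq's gene table, which is separate from its promoter table. The brightest probe set stood for a gene.

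Groups come from the sample titles. The noodle minus control difference was fitted by lmFit and eBayes of limma (version 3.58.1, R version 4.3.3; two-sided) over all 31042 probe sets, with Benjamini-Hochberg adjustment and a threshold of 0.05. The smallest adjusted p of any probe set was 0.409. Correlations across animals were tested two-sidedly with 100000 permutations, or exactly with fewer than 10 animals. The number of arrays, 5 a group, limits the precision. The members and marker lists were chosen with earlier results of these data known. Named genes were the members, up to 5 non-flat genes of lowest p per lymphocyte or leukocyte list, and the 8 non-flat genes most like the members. Ccl21, Cd4, Cr2, Ltb, Prox1, Ebf1, Fyn and the named T and NK cell genes fall outside that rule. They were picked after their values were seen. The fit was tested on simulated data. Alternatives were 2 scalings, a filter on dim probe sets, non-flat probe sets only, an intensity trend, array weights, the covariate of RNA quality, averaged probe sets for each gene and leaving out each animal.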

Additional observations from a re-analysis of the deposited data

Results flagged for a closer look

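Within the 2 diets, 54 groups of 5 animals were examined over the member probe sets and the other non-flat genes named from the lists, and in 2 of them a single rat lay far from its group; about 2.7 would by chance (1 in 20). Both were in noodle animal 10. The flat Ptprc probe set stood at -2.56 units of 0.0001 log2 from its mean there, while its diet group otherwise spanned 0.645 to 1.80, and Fcmr stood at 8.02 log2, against 8.35 to 8.46.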

How the results depend on the processing

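No paired analysis was possible because no animal number occurs in both diets and the pairs used for feeding are not named. The number of probe sets past the threshold was 0 under all alternatives except leaving out single animals, where it ranged from 0 to 1 (1 without control animal 14). The count of member genes higher in the noodle group ranged from 2 to 6 with single animals left out and was 8 with quantile normalization and 8 with centring. Their median difference ranged from -0.00013 to 4.72e-05 without single animals, and was 0.00104 and 0.0016 with the 2 scalings. The same values over all genes are not given for these alternatives, so the changes are not read as a trait of the members. With non-flat probe sets only, 2 member genes were left, so no count or median was taken; the refit gave Ccl5 and Ptprc the same differences with SEs of 0.256 and 0.051. The Ccl5 difference ranged from -0.178 to 0.0628 and that of Ptprc from 0.0154 to 0.0586 without single animals, and with the 3-prime to 5-prime covariate they were -0.26 (SE 0.356) and -0.00197.

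Correlations with Ccl5, without single animals, ranged from 0.911 to 0.963 for Lck, 0.792 to 0.917 for Cd3g, 0.686 to 0.797 and 0.528 to 0.941 for the 2 Cd3e probe sets, 0.658 to 0.824 for Cd3d, 0.481 to 0.807 and 0.222 to 0.538 for the non-flat and the flat Ptprc, 0.035 to 0.418, 0.388 to 0.824 and 0.393 to 0.722 for Cd8a, -0.0752 to 0.403 for Cd2 and -0.143 to 0.351 for Cd79b. Quantile normalization gave 0.0589 for Lck, 0.228 for Cd3g, -0.00414 for Cd3e, 0.133 for Cd3d and -0.0440 for the flat Ptprc. Centring gave 0.019, 0.0197, 0.0244 and 0.00229 for the first 4, and -0.00888 for the second Cd3e, -0.0437 for Cd2, -0.0489, -0.0266 and -0.0211 for Cd8a, -0.0221 for the flat Ptprc and -0.0503 for Cd79b. Both scalings move arrays by more than flat probe sets vary. The 6 animals with lower Ccl5 gave 0.688 for Lck, 0.772 for Cd3g, 0.729 and -0.102 for Cd3e, 0.651 for Cd3d, -0.335 for a Cd8a probe set, and -0.00764 and -0.232 for Ptprc; fewer animals entered. Without the 2 animals farthest from the Ccl5 median, Cd2 gave -0.25, and the cause was not tested. The correlations with flat probe sets, the scaling of list correlations, the centring of correlations and the partial correlations were added after the data were seen.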
